A study of Mus musculus with 182 samples.

Results

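The genes described here are the 5 NF-κB subunit genes Nfkb1, Nfkb2, Rel, Rela and Relb and the 2 feedback inhibitor genes Nfkbia and Tnfaip3, 7 of the 17034 gene symbols in a table of 182 single germinal centre B cells. They were chosen by symbol, as a pathway, and all 7 were present. The cells came from spleens of C57BL/6 mice 13 days after an intraperitoneal dose of 100 μg NP(23)-KLH, a hapten on a carrier protein, with 50% alum and 1 μg of LPS, a bacterial product that itself activates NF-κB. They were sorted as B220+, Fas high and GL7 high (the sample labels add NP binding), captured on the Fluidigm C1 system and sequenced with 1 library a cell. Every cell belonged to this 1 group, with no untreated control and no named animal, and neither the age nor the number of the mice was stated. Cells were therefore treated as parts of 1 biological sample, no test was run, and all relations below are descriptions across cells. Intervals cover counting error over cells only.

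NF-κB proteins are transcription factors that work as pairs of subunits. In resting B cells, inhibitor proteins hold them in the cytoplasm. Signals from the B cell receptor, Toll-like receptors or CD40 lead to destruction of the inhibitor, and the freed pairs enter the nucleus. The inhibitor genes Nfkbia and Tnfaip3 are themselves switched on by NF-κB, so that the signal limits itself. In the germinal centre, NF-κB is known for its role in the light zone, where B cells receive help through CD40, and Rel is known to be needed to maintain the reaction.

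The κB motif is the DNA sequence that NF-κB pairs bind. Upstream sequences of 3 members are shown, because these genes form the pair of members, Nfkbia with Tnfaip3, and the pair of a member with Cd40 that met the rule used below. Each runs 5′ to 3′ on the gene's strand and comes from RefSeq, GRCm38.p6, the assembly that the name mm10 stands for. Capitals mark matches to the 10-base κB consensus on either strand. Annotated exons were left out.
Nfkbia, chr12:55492648-55492897, minus strand: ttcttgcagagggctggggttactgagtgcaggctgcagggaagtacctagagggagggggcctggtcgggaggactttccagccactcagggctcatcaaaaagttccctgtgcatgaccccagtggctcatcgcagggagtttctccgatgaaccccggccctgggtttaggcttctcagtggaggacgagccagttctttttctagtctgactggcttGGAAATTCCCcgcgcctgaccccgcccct
Tnfaip3, chr10:19015411-19015547, minus strand: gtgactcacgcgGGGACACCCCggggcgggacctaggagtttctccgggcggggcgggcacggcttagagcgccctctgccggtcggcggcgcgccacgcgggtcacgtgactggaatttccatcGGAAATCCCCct
Rel, chr11:23770971-23771219, minus strand: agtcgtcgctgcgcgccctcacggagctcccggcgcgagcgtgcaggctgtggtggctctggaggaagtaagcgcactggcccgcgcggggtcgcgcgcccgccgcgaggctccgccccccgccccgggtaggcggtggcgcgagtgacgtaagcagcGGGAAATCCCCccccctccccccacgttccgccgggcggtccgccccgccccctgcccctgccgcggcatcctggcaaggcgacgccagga
The Nfkbia match, GGAAATTCCC, lay 29 to 20 bases before the annotated start. The Tnfaip3 sequence held GGAAATCCCC at 12 to 3 bases and GGGACACCCC at 125 to 116 bases before the start. In Rel, 2 matches that overlap by all but 1 base began 92 and 91 bases before the start. Windows of 250 bases before a start were at hand for 5 of the 7 members. Of their 8 windows 6 held a match, and of the 5 genes 4 did, including Nfkb2, while Rela had none. Among all 32851 such windows of RefSeq genes, 3.90% held a match. A match describes these letters and does not show binding in these cells.

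The values are a normalized signal on a linear scale, with no unit, depth or scaling by gene length stated. Each gene has its own lowest value, called its floor here, at which cells without signal stand, and this floor differs between cells 1 to 96 (set 1, 96 cells) and cells 97 to 182 (set 2, 86 cells). What the sets correspond to in the laboratory is unknown, so every relation is given within each of them. Cells of set 1 had 1873 to 1946 genes at or above a value of 1 (median 1904), and those of set 2 had 995 to 1741 (median 1690). The number of genes above their floor, a stand-in for depth here, ranged from 1904 to 4495 with a median of 2666 in set 1, and from 980 to 5149 with a median of 2188.5 in set 2. Of the B cell markers, Cd79b reached a value of 1 in 98.9% of cells, Ms4a1 in 96.7%, Cd79a in 91.8% and Pax5 in 33.5%. Of the germinal centre markers, Mef2b stood at 75.8%, Bcl6 at 58.2%, Fas, the gene of a sort marker, at 50.0% and S1pr2 at 45.1%. The T cell genes Cd3d and Cd4 were seen in 0 of 182 cells (up to 1.65%, the share that 3 counts of 182 give), while Cd28 was seen in 3. Myeloid genes were led by Lyz2 with 15 cells, and 7 cells held at least 2 of the 6 on that list, whose summed level ran from 0.129 to 1165. The NK cell genes Klrb1c and Nkg7 were found in 1 cell each. The stromal gene Col1a2 was found in 1 cell, and of the plasma cell genes Xbp1, also expressed by other B cells, was found in 46 cells and Prdm1 in 2.

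Detection here means a value of 1 or more. In set 1 nearly the same number of genes reached it in every cell (1873 to 1946), while genes above floor ran from 1904 to 4495. In that set the value of 1 thus lay near a fixed number of genes per cell. A member above its floor can therefore count as not detected, such as Nfkbia at 0.545 in cell 24, which had 4378 genes above floor. The members were unequal in how many cells they reached. Nfkbia, which encodes the inhibitor IκBα (chromosome 12, 55489409 to 55492647), was the only member detected in over 50% of cells, at 128 of 182 (70.3%, exact Clopper-Pearson 95% interval 63.1 to 76.9). Of all 17034 genes 3.79% passed 50%. Rel, which encodes c-Rel (chromosome 11, 23736847 to 23770969), was detected in 76 cells (41.8%, 34.5 to 49.3). Rela, which encodes p65 (chromosome 19, 5637442 to 5648134), was detected in 61 (33.5%, 26.7 to 40.9), an interval that overlaps that of Rel. These subunits carry the activation domain of the classical pathway.

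The remaining members were each found in fewer than 1 in 5 cells. Nfkb1, the gene of p105, from which p50 is made (chromosome 3, 135584655 to 135691969), was detected in 34 cells (18.7%, 13.3 to 25.1). Relb (chromosome 7, 19606217 to 19629438) and Nfkb2, the gene of p100, from which p52 is made (chromosome 19, 46300994 to 46312400), serve the alternative pathway. They were detected in 22 (12.1%, 7.73 to 17.7) and 19 cells (10.4%, 6.40 to 15.8). Tnfaip3, which encodes the ubiquitin-editing enzyme A20 (chromosome 10, 19000910 to 19015410), was detected in 14 (7.69%, 4.27 to 12.6). The intervals of these last 3 genes overlap each other. The median share of the 7 members was 18.7%, against 3.85% over all genes of the table. Because scaling by length is not known, this order of genes describes the table and not transcript numbers.

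The shares depended on where detection was set. At a value of at least 5 they were 50.0% for Nfkbia, 25.8% for Rel, 17.6% for Rela, 11.5% for Nfkb1, 8.24% for Relb and for Nfkb2, and 4.95% for Tnfaip3. Above the floor they were 75.3%, 49.5%, 46.7%, 28.6%, 15.4%, 17.0% and 13.2% in the same order. Rela had the most cells in the range between, and Nfkb2 passed Relb there. Since single-cell libraries miss transcripts, these shares do not equal the shares of cells that express a gene.

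Within a set, a member's values ran from its floor to high levels, with no common level shared by the cells. In set 1, Nfkbia ran from 0.0224 to 2625 with a median of 4.43. In set 2 it ran from 0 to 2755 with a median of 5.88. The ranges of the sets lay almost over each other, and the shares did too, with 67 cells (69.8%) in set 1 and 61 (70.9%) in set 2. The 3 quartiles among detected cells were 3.73, 24.2 and 248 in set 1, and 4.63, 21.7 and 178 in set 2.

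Rel ran from 0 to 474 (median 0.530) in set 1 and from 0.0357 to 827 (median at the floor, 0.0357) in set 2. It was detected in 44 cells (45.8%) and 32 cells (37.2%), and these intervals (35.6 to 56.3 and 27.0 to 48.3) overlap. Rela had its highest value, 13017, in cell 168 of set 2, with the next at 2869. In set 1 its highest was 2510. Medians stood at the floor in both sets, 0.0283 and 0, and detection was alike, with 32 (33.3%) and 29 cells (33.7%). Among detected cells, Rela had a median of 5.97 in set 1 and 7.40 in set 2, so most detected cells were low and a few very high.

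For the other 4 members the median cell stood at the floor in both sets. The highest values were 366 and 398 for Nfkb1, 82.9 and 98.7 for Nfkb2, 552 and 352 for Relb, and 57.7 and 56.5 for Tnfaip3, in sets 1 and 2. Nfkb1 was detected in 18 and 16 cells, Nfkb2 in 12 and 7, Relb in 11 and 11, and Tnfaip3 in 7 and 7. None of these genes was confined to 1 set. In the annotation, Nfkb2 overlaps Psd on the other strand. The libraries' kit is not described as keeping the strand, so its signal could hold reads of Psd. No other member overlapped a gene of the table.

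**Figure D1:**
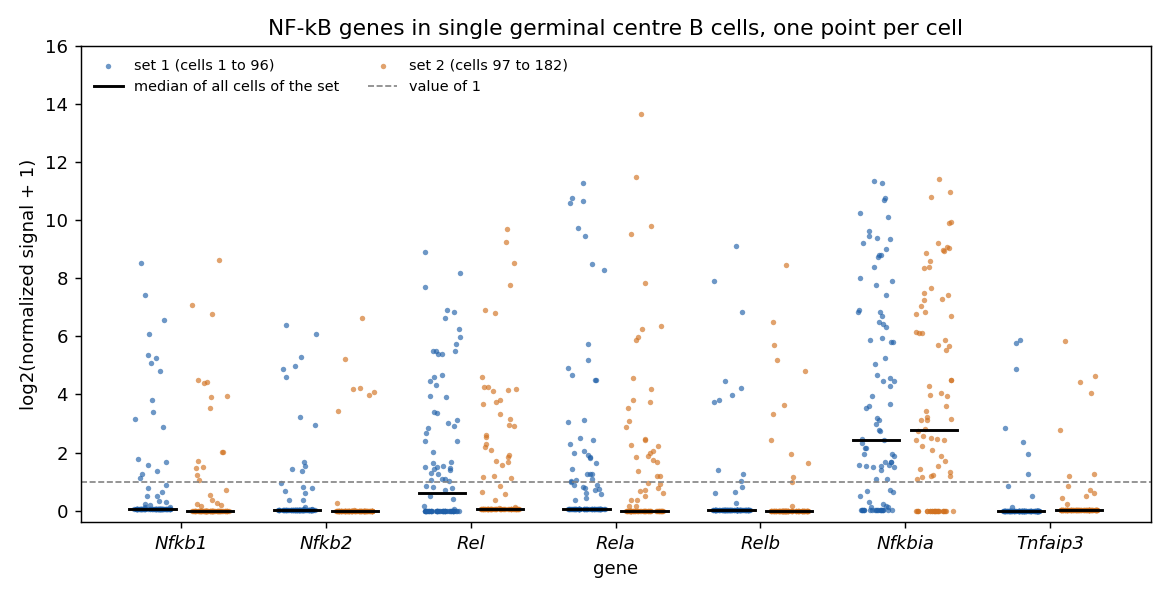
Each point is 1 cell, with log2(normalized signal + 1) on the vertical axis, genes along the horizontal axis, blue for set 1 and orange for set 2, a black bar for the median of all cells of the set, and a dashed line at a value of 1. Only Nfkbia has its median above the line in both sets, and Rela has the highest single value, in set 2.

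Most cells held few of the members at once at a value of 1 or more. Of the 182 cells, 21 (11.5%) had none, 48 had 1, 57 had 2, 38 had 3, 12 had 4 and 6 had 5, and 0 cells had 6 or 7. The median was 2 members in each set. The mean over all cells, 1.95, is by definition the sum of the 7 shares. The distribution that the shares alone would give was not computed. These counts therefore do not show whether members occur together or apart. At least 1 of the 5 subunits was detected in 130 cells (71.4%), with exactly 1 subunit in 68 and several in 62. In the 52 cells with no subunit detected, 31 had an inhibitor gene. This was no larger a share than in all cells, where Nfkbia alone was detected in 128 of 182. At least 3 members were found in 56 cells (30.8%), which became 25 cells at a value of at least 5 and 85 above the floor. The number of members in a cell had a rho of -0.17 with genes above floor in set 1 (96 cells) and 0.16 in set 2 (86 cells).

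**Figure D2:**
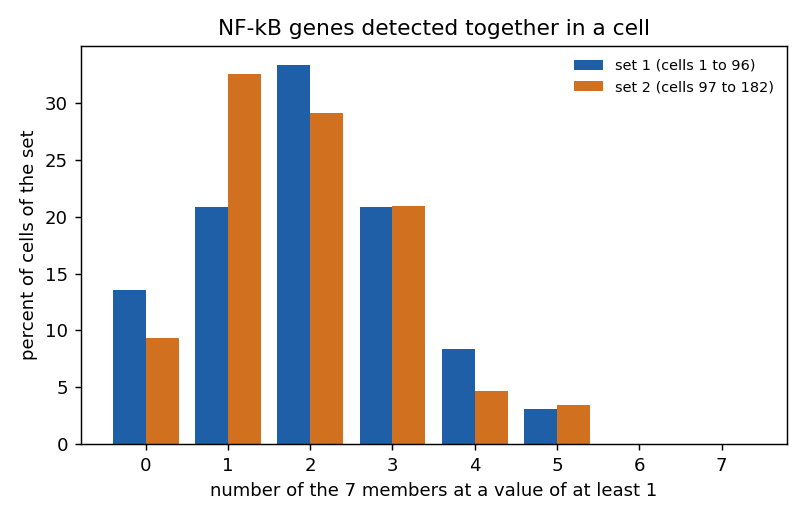
Bars give the percent of cells of each set (vertical axis) that hold 0 to 7 of the members at a value of at least 1 (horizontal axis), with blue for set 1 and orange for set 2. The tallest bar is 2 members in set 1 (33.3%) and 1 member in set 2 (32.6%), and none stands at 6 or 7.

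Relations between members were described with Spearman's rho across cells. Pooled over all 182 cells, rho ran from -0.56 (Nfkb2 with Tnfaip3) to 0.57 (Nfkb2 with Relb). These values followed the floors. Nfkb1, Nfkb2, Rela, Relb and Nfkbia have the higher floor in set 1, and Rel and Tnfaip3 in set 2. Of the 11 pairs with the higher floor in the same set, 11 had a positive pooled rho, and of the 10 other pairs 8 had a negative one. With every value under 1 set to 0, a step chosen after seeing the data, the pooled values shrank to between -0.01 and 0.18 in the first kind of pair and between -0.10 and 0.20 in the second. The pooled values are therefore not read further, and each set is described alone.

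A pair was taken to move together when rho was at least 0.15 in each set. The background was all pairs of the 4638 genes that reached 10% of cells in each set. Of these pairs, 2.41% met the rule, and 0.819% were opposed (at most -0.15 in each set). Of the 21 pairs of members, 1 moved together and 0 were opposed. The 5 members that reach 10% in each set (Nfkb1, Rel, Rela, Relb and Nfkbia) form 10 of these pairs, and 0 of the 10 moved together. With the limit lowered to 5% of cells, which keeps all 7 members, 2.21% of pairs met the rule. A count of 1 in 21 pairs (4.76%) is too small to be set apart from this background. Within sets, the largest rho was 0.26 in set 1 (Rel with Relb, 0.09 in set 2) and 0.21 in set 2 (Relb with Nfkbia, 0.04 in set 1).

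The pair that moved together was the inhibitors, Nfkbia and Tnfaip3, with a rho of 0.22 in set 1 and 0.20 in set 2 (Pearson's r of log2(value + 1) 0.26 and 0.14). Of the 14 cells with Tnfaip3, 13 also had Nfkbia, where the product of the shares within sets gives 9.85. In the 7 such cells of set 1, Nfkbia stood at 88.7 (cell 4), 1112 (cell 5), 60.4 (cell 12), 259 (cell 14), 2625 (cell 22), 2.70 (cell 26) and 24.2 (cell 49). In the 7 of set 2 it stood at 1.25 (cell 101), 1.67 (cell 108), 151 (cell 122), 51.7 (cell 156), 591 (cell 171), 2025 (cell 177) and 0 (cell 179). Thus 10 of the 14 lay above their set's median for Nfkbia, 6 in set 1 and 4 in set 2, and the cells ranged over the whole span of Nfkbia. Tnfaip3 itself was highest in cells 4 (57.7), 122 (56.5) and 14 (53.4).

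This relation rests on few cells. Among genes that reached 10% of cells in each set, 0.647% met the rule with Nfkbia and 0.862% with Tnfaip3, which itself falls short of 10%. With the 2 cells of each set that lay farthest from the Nfkbia median left out, rho was 0.18 and 0.13. Nfkbia had a rho with genes above floor of -0.33 in set 1 and 0.31 in set 2, and Tnfaip3 of -0.06 and 0.25. After regressing ranks on genes above floor, the pair had 0.21 and 0.14, below the rule in set 2, and 1.29% of background pairs met the rule. Without the 7 cells that held at least 2 myeloid genes, 6 of which had Nfkbia and 1 Tnfaip3, it had 0.24 and 0.19.

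**Figure D3:**
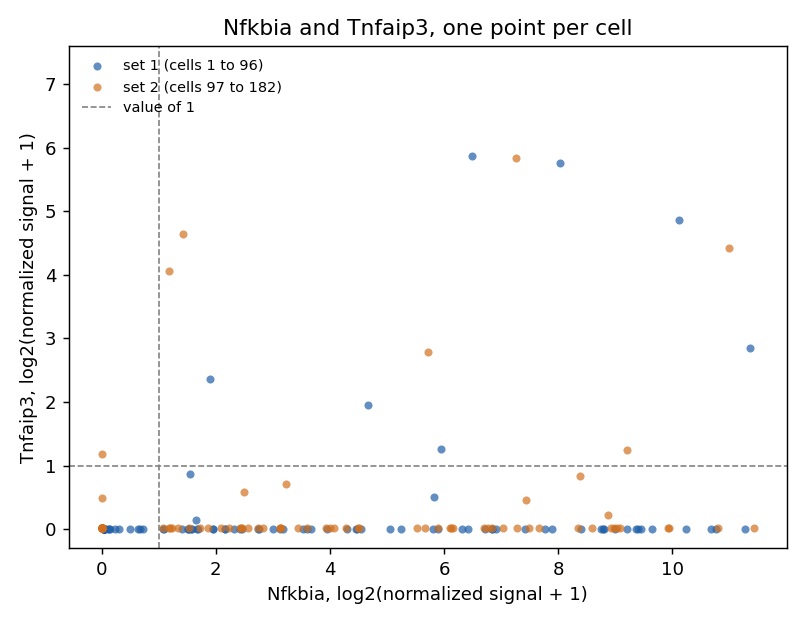
Each point is 1 cell, with log2(normalized signal + 1) of Nfkbia on the horizontal and of Tnfaip3 on the vertical axis, blue for set 1, orange for set 2 and dashed lines at a value of 1. Of the 14 cells above the horizontal line, 13 lie to the right of the vertical one.

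Weak positive values were more frequent among the members than strong ones. In 14 of the 21 pairs (66.7%) rho was above 0 in both sets, a count chosen after seeing the data, while 31.9% of the background pairs had this (31.1% at the limit of 5%). The pairs share genes and so are not separate observations. After regressing ranks on genes above floor the count was 12 of 21 and the background 26.7%. With Pearson's r at a pseudocount of 10, which gives weight to the highest values, it was 7 of 21. The median rho over the 21 pairs was 0.04 in set 1 and 0.11 in set 2, beside 0.01 and 0.02 over all such gene pairs.

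Pairs of subunits were positive in both sets in 7 of 10. With the 6 other members Nfkbia was positive in both sets for 5, with medians of 0.09 and 0.19. All 6 were found together with it in more cells than the product of the shares gives. The share of all gene pairs above their product was not computed, so such counts have no background here. Nfkb1 shared 30 of its 34 cells with Nfkbia (product 23.9; rho 0.10 and 0.19). Relb shared 20 of 22 (product 15.5; 0.04 and 0.21), Nfkb2 15 of 19 (product 13.3; 0.07 and 0.10) and Rel 59 of 76 (product 53.4; 0.146 and 0.12). Rela was the exception in sign, at 44 of 61 (product 42.9), with rho of -0.13 in set 1 and 0.19 in set 2.

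Rela was found with another member in more cells than the product of the shares gives in 1 of its 6 pairs, again with no background. The pairs had a median rho of -3.8e-04 in set 1 and 0.01 in set 2, with 2 of the 6 positive in both sets. With Rel, its fellow activating subunit, rho was -0.0046 and 0.02, and the 23 cells that held both compare with a product of 25.5. With Tnfaip3 it had the lowest values of the 21 pairs, -0.18 in set 1 and -0.148 in set 2, just short of the rule, and 3 cells held both where the product gives 4.69. Rel and Relb shared 14 cells (product 9.13), and this rho was 0.26 in set 1 and 0.09 in set 2. The alternative pathway genes Nfkb2 and Relb were found together in 2 cells (product 2.27), with 0.03 and 0.16. Nfkb1 and Nfkb2 had 0.04 and 0.17. With every value under 1 set to 0, Nfkb2 with Relb had -0.04 in set 1 and 0.02 in set 2. Nfkb1 with Nfkb2 then had 0.06 and 0.07.

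**Figure D4:**
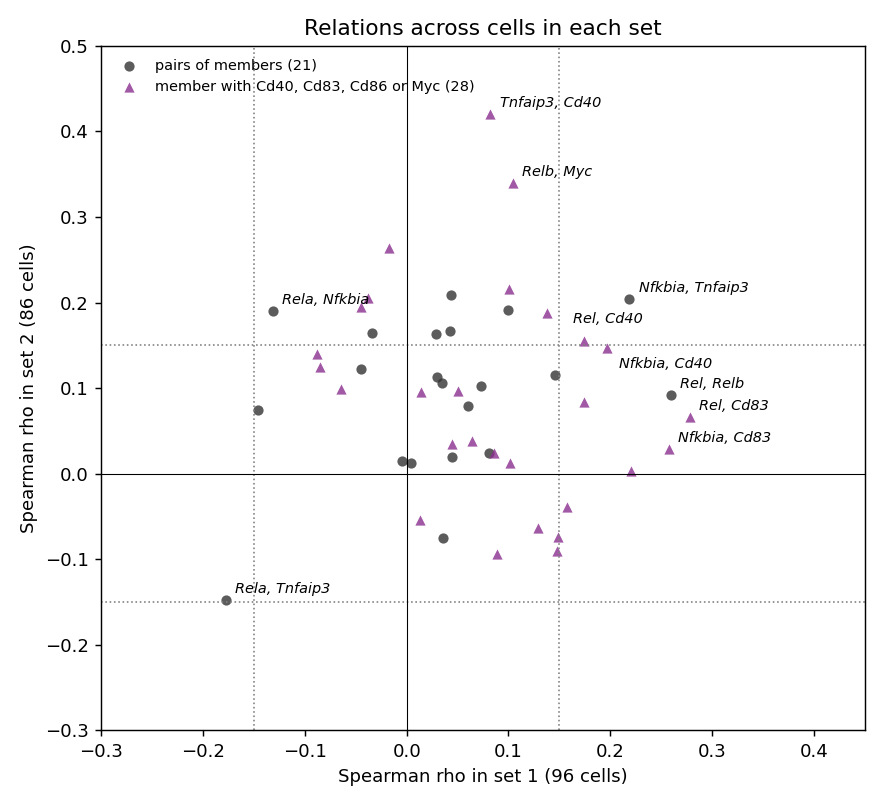
Each point is a pair of genes placed by Spearman's rho in set 1 (horizontal axis, 96 cells) and in set 2 (vertical axis, 86 cells), with circles for the 21 pairs of members, triangles for the 28 pairs of a member with Cd40, Cd83, Cd86 or Myc, and dotted lines at 0.15 and -0.15. Nfkbia with Tnfaip3 (0.22, 0.20) and Rel with Cd40 (0.17, 0.15) lie in the upper right corner beyond both lines, and no point lies beyond both lower lines.

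The members were next set beside Cd40, the receptor of T cell help, Cd83 and Cd86, surface proteins of the light zone, and Myc, a target of NF-κB that marks selected cells. Of these 28 pairs, 1 moved together in both sets, 0 were opposed, and 16 were positive in both. Of all background pairs 31.9% were positive in both. This share was not computed for Cd40, Cd83, Cd86 or Myc alone, so the count of 16 has no background of its own. Among genes that reached 10% of cells in each set, the share opposed to them was 0.582% for Cd40, 1.25% for Cd83, 1.12% for Cd86 and 0.323% for Myc. Cd40 (chromosome 2, 165055614 to 165071654) was detected in 42 cells (23.1%), 18 in set 1 and 24 in set 2. It was positive in both sets with 6 of the 7 members, with medians of 0.10 and 0.147, a count with no background for Cd40 itself. Rel with Cd40 met the rule with 0.17 and 0.15, and 22 cells held both where the product gives 17.2. Among genes that reached 10% of cells in each set, 2.31% met the rule with Cd40 and 0.819% with Rel. Without cell 122, whose summed signal of 3443762.5 was the highest, rho in set 2 was 0.13, and after regressing ranks on genes above floor it was 0.18 and 0.13, so the rule was then not met. Without the 7 cells with at least 2 myeloid genes, of which 5 held Rel and 1 Cd40, it had 0.19 and 0.148, also just short. Cd40 had a rho with genes above floor of 0.04 in set 1 and 0.35 in set 2.

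Nfkbia with Cd40 fell just short, with 0.20 and 0.147, and 32 cells held both (product 29.6). Without the 7 cells with myeloid genes it met the rule, with 0.19 and 0.153, and after regressing ranks it had 0.22 and 0.04. Tnfaip3 with Cd40 had the largest rho of any of the 49 pairs, 0.42 in set 2, but 0.08 in set 1. The value in set 2 also ranks Tnfaip3 signal that counts as not detected. Of the 14 cells of set 2 above the Tnfaip3 floor, 7 stood under 1. Cd40 there was 762 (cell 109), 0.247 (cell 113), 48.7 (cell 117), 8.50 (cell 141), 100 (cell 157), 111 (cell 172) and 0.991 (cell 173). Of the 14 Tnfaip3 cells 7 held Cd40 (product 3.27), 3 in set 1 and 4 in set 2. Cd40 in those cells stood at 1.53, 5046 and 2.25 in set 1 and at 23.8, 41.7, 2.96 and 25.3 in set 2, so its highest value in the table, in cell 14, fell in a Tnfaip3 cell.

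Cd83 (chromosome 13, 43785112 to 43803133), detected in 88 cells, had a rho of 0.28 with Rel and 0.26 with Nfkbia in set 1, but 0.07 and 0.03 in set 2. In set 1, 27 cells held Rel and Cd83 (product 22.0) and 40 held Nfkbia and Cd83 (product 33.5). In set 2 the counts were 15 and 29, beside products of 14.9 and 28.4. Over the 7 members the median with Cd83 was 0.15 in set 1 and 0.03 in set 2, and 0 met the rule, which 0.647% of genes that reached 10% of cells in each set did. Cd86 (chromosome 16, 36568956 to 36666158), detected in 54 cells, had medians of 0.06 and 0.04, its largest rho being 0.17 with Relb in set 1 (0.08 in set 2). Again 0 met the rule, beside 0.733% of genes that reached 10%. The dark zone receptor Cxcr4, detected in 87 cells, had medians of -0.07 and 0.04. The members with a value of one sign in both sets were 1 of 7 (Relb, -0.09 and -0.08), a share not computed over all genes. Rel with Cxcr4 had -0.19 in set 1 and 0.04 in set 2, and 0 members met the rule with Cxcr4, beside 0.949% of genes that reached 10%.

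Myc (chromosome 15, 61985341 to 61990361) was detected in 34 cells, 12 in set 1 and 22 in set 2. With Relb it had 0.10 in set 1 and 0.34 in set 2, and 6 cells held both. With Nfkbia it had 0.14 and 0.19, and 26 of the 34 Myc cells held Nfkbia (product 24.0). With Rel it had -0.04 and 0.20 and with Nfkb1 -0.02 and 0.26. No member met the rule with Myc, and 4.87% of genes that reached 10% did. Genes above floor had a rho with Myc of 0.22 and 0.40, higher than the medians of 0.10 and 0.14 over the 4638 genes that reached 10%, and the part of depth in these values was not tested. After regressing ranks on genes above floor, Relb with Myc had 0.07 and 0.35 and Nfkbia with Myc 0.23 and 0.07.

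**Figure D5:**
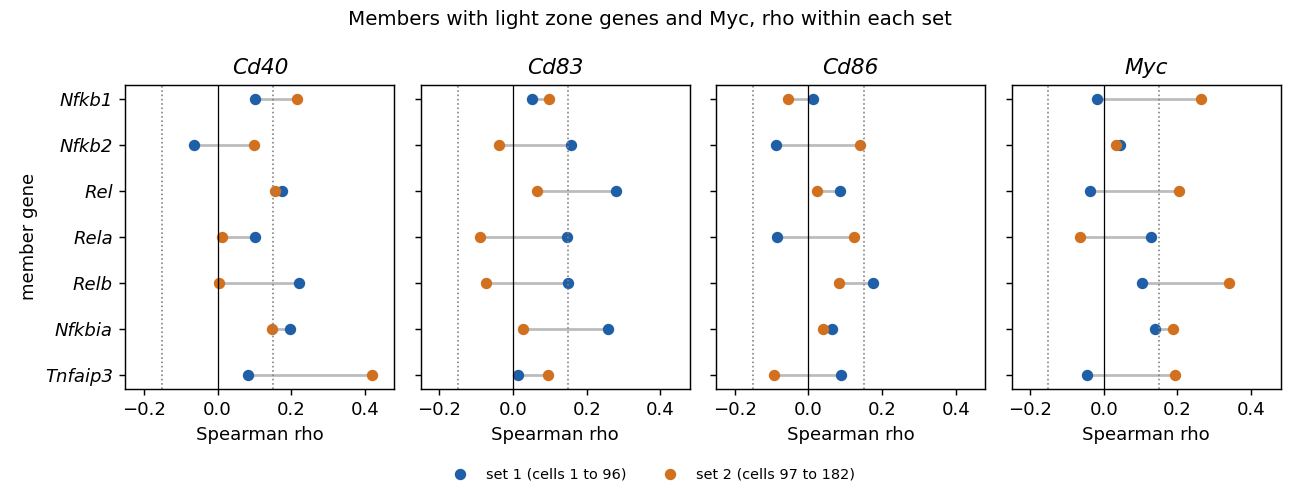
The 4 panels give Spearman's rho (horizontal axis) of each member (vertical axis) with Cd40, Cd83, Cd86 and Myc, blue for set 1, orange for set 2, and dotted lines at 0.15 and -0.15. With Cd40 both points of Rel lie beyond 0.15, while with Cd83 the points of Rel, Nfkbia and Nfkb2 lie beyond it in set 1 alone.

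The wider pathway was described with 5 lists, of which 39 genes reached 10% of cells in each set. Over 273 pairs of a member with such a gene, 7 moved together (2.56%) and 0 were opposed. For pairs of any gene that reached 10% with any of the 7 members the share was 1.32%. By member it was 3.32% for Nfkb1, 0.841% for Nfkb2, 0.819% for Rel, 1.66% for Rela, 1.12% for Relb, 0.647% for Nfkbia and 0.862% for Tnfaip3. The share of such genes opposed to a member ran from 0.194% for Nfkb2 to 1.19% for Rela. A count of 0 opposed in 273 pairs cannot be set apart from these low shares. A count of 7 together is likewise too small to be set apart from 1.32%, as the pairs share genes. The 273 pairs include the 28 with Cd40, Cd83, Cd86 and Myc, so Rel with Cd40 is counted here again. Among receptors, Tnfrsf13c, the BAFF receptor, was detected in 143 cells, Cd180, a regulator of Toll-like receptor signals, in 64, Tnfrsf13b in 44 and Cd40 in 42. Rel moved together with 2 of the 4 receptors that reached 10%, Cd40 and Cd180 (0.18 and 0.23, with 36 cells holding both). No other member did so with any of them.

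Among adaptors and kinases, the IκB kinase gene Ikbkb was detected in 59 cells, Traf5 in 44 and Traf1 in 43. Of the 70 pairs with 10 such genes 2 moved together. Nfkbia did so with Traf2 (0.39 and 0.21), an adaptor of CD40 and TNF receptors found in 34 cells, of which 29 held Nfkbia. Tnfaip3 did so with the IκB kinase gene Chuk (0.26 and 0.24), with 6 cells holding both. Of other inhibitors, Tax1bp1, a partner of A20, was detected in 93 cells, Nfkbie in 49, Nfkbid in 42 and the deubiquitinase gene Cyld in 40. Nfkbia moved together with Nfkbie, which encodes IκBε and is itself a target (0.17 and 0.151, with 39 cells holding both), 1 of 42 pairs of this list. After regressing ranks on genes above floor, this pair had 0.19 and 0.11, and Nfkbia with Traf2 had 0.38 and 0.25.

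Of 27 target genes 24 were in the table and 15 reached 10% of cells in each set. The most frequent were Cd83 in 88 cells, Tap1, a peptide transporter gene, in 87, Gadd45b in 65 and the immunoproteasome gene Psmb9 in 59. Of 105 pairs with targets, 2 moved together, Nfkbia with Nfkbie and Rel with Psmb9 (0.18 and 0.17, or 0.21 and 0.14 after the same regression). Medians over these pairs were 0.05 and 0.04. The immediate early genes, which are switched on within minutes of a signal, were led by Btg2 in 132 cells, Dusp2 in 90, Egr1 in 54 and Fos in 53. Of 56 pairs with them 1 moved together, Rela with Egr1 (0.27 and 0.29, or 0.32 and 0.30 after regressing ranks on genes above floor), with 29 cells holding both. Nfkbia had medians of -8.3e-04 and 0.08 with these genes.

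Genes with the pattern most like each member were ranked by the smaller of the 2 within-set values of rho, over 4633 genes in 96 and 86 cells. Nfkbia was most like Ptpn2, a phosphatase gene (0.25 and 0.24), then Dnaja2, a chaperone gene (0.22 and 0.23), and Eif1b (0.22 and 0.22). Eif1b had a rho with genes above floor of 0.20 and 0.39. Genes like Tnfaip3 included Nfe2l1 (0.25 and 0.25, with 6 cells holding both) and Shkbp1 (0.25 and 0.45, with 8 cells holding both). Shkbp1 had a rho with genes above floor of -0.09 in set 1 and 0.29 in set 2. Rel was most like the kinase gene Gsk3b (0.24 and 0.24), Snx30 (0.23 and 0.25) and Rnpepl1 (0.21 and 0.22).

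Rela was most like Cnbp, a nucleic acid binding protein gene found in 108 cells (0.37 and 0.37), then Inpp4a (0.30 and 0.32) and Rgs14 (0.41 and 0.29). Nfkb1 was most like Tomm22, a part of the mitochondrial import pore (0.41 and 0.35), Slc25a4, the mitochondrial ADP/ATP carrier (0.30 and 0.27), and Tesk2 (0.34 and 0.27). Tomm22 and Slc25a4 had a rho with genes above floor of 0.24 and 0.21 in set 1 and 0.47 and 0.53 in set 2. Relb was most like Cklf (0.31 and 0.27), Traf3ip3 (0.26 and 0.29) and Snn (0.30 and 0.24). Nfkb2 was most like Cwc27 (0.21 and 0.32), Ppp2r5d (0.21 and 0.22) and Mkln1 (0.22 and 0.21). Only 2 cells held both Nfkb2 and Ppp2r5d, and Ppp2r5d had a rho with genes above floor of 0.25 and 0.36. Being the extremes of 4633 genes, the values of rho with the members overstate the likeness. No gene named here as like a member is named for another member. Since only a few of 4633 genes are named per member, little overlap could be found in any case. The overlap to be met by chance was not computed, so its absence does not set the members apart.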

How the data were processed

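The data were 182 single-cell RNA libraries of mouse germinal centre B cells. The authors deposited 1 table of normalized signal, which its name calls not log-transformed. TopHat2 2.0, Cufflinks 2.2, Cuffdiff and the mm10 build appear in the submitters' processing notes, with no order or settings. How values were scaled, and which annotation was used, was not given in the sources used here. Values are not whole numbers, so no count model was used, and depth is unknown.

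The table had 17035 rows for 17034 symbols, and the first row of the repeated symbol was kept. Shares, rho and co-detection were computed with Python 3.11.15, scipy 1.17.1 and pandas 2.3.3. The calculation of rho was tested on simulated data. Cells were treated as 1 sample, and cell numbers and sets were read from the column names.

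The members, the lists and the rules were chosen with earlier results of these data known. Genes named were the members, Cd40, Cd83, Cd86, Myc and Cxcr4, the 4 genes of each pathway list in most cells, any list gene meeting the rule with a member, 3 most like genes per member, and the leading gene of each other cell type. A few more markers were named after their values were seen, and some genes that the rule names are not reported here. Alternatives were thresholds of detection and of rho, Pearson's r with pseudocounts of 0.1, 1 and 10, phi of detection, regression of ranks, and left-out cells. No doublet caller was run.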

Additional observations from a re-analysis of the deposited data

How the results depend on the processing

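At a value of at least 5, 0 members passed 50% of cells, since Nfkbia stood at exactly 50.0%, and above the floor or without cell 122 the count stayed at 1. Cells with at least 3 members numbered 25 at a value of at least 5 and 85 above the floor.

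The count of member pairs that moved together, 1 in the report, was 0 with ranks regressed on genes above floor, with Pearson's r at a pseudocount of 10, or without the 2 cells farthest from the median. It was 2 with Pearson's r at a pseudocount of 0.1, with phi of detection, at a rho of at least 0.10, or with ranks within set over all cells. The setting with ranks within set asks for 1 rho of at least 0.15 over all cells, and not for 0.15 in each set. Pearson's r at a pseudocount of 1 gave 1 pair, but this was Nfkb1 with Nfkbia (0.16 and 0.24), since Nfkbia with Tnfaip3 had 0.14 in set 2.

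The count with Cd40, Cd83, Cd86 and Myc, also 1, was 0 with ranks regressed on genes above floor, with Pearson's r at a pseudocount of 10, without cell 122, or at a rho of at least 0.20. It was 2 with Pearson's r at a pseudocount of 0.1, without the 2 farthest cells, or without the 7 cells with at least 2 myeloid genes (Nfkbia with Cd40 and with Myc, a step chosen after seeing the data), 5 at a rho of at least 0.10, and 7 with ranks within set over all cells. Pearson's r at a pseudocount of 1 gave 1 pair, Tnfaip3 with Cd40 (0.27 and 0.21). The rho of Rel and Cd40, set 2, turned to -0.00383 with Pearson's r at a pseudocount of 10. The count of 7 pathway pairs became 26 at 0.10, 3 at 0.20 and 24 with ranks within set over all cells. Shares over all genes were computed for the rule itself and for regressed ranks only. The counts of pairs under the other settings therefore have no background, and their rise or fall is not a result about the members. The 14 pairs positive in both sets became 7 at a pseudocount of 10. The causes of these shifts were not tested. No paired analysis was possible because there is a single group of cells. Depth is unknown, so a gene not detected may have been missed.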
